A study of Homo sapiens with 6 samples.

Results

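CEP170, SDCCAG8 and 6 other genes of chromosome 1q43-q44 (ZBTB18, ADSS, DESI2, COX20, OPN3 and WDR64) were followed in RKO cells, together with CEP170B, the paralogue of CEP170, which lies on chromosome 14 and is no neighbour of the others. These 9 genes were taken by symbol from a deposited table of 63563 genes, and each symbol matched 1 row. They were put together with their fold changes in this experiment known, from the low CEP170 and SDCCAG8 values in cells overexpressing Cx43, so the levels below are a description and carry no p-value. RKO is a human colorectal cancer line. The OVER43 group (3 libraries) was stably transfected with the pcDNA3.1 vector carrying the cDNA of Cx43, the gap junction protein encoded by GJA1, and the EV group (3 libraries, genotype labelled WT) with the empty vector. All cells share the line, the medium and poly(A) RNA sequencing. The labels do not say whether each stable population was a clone or a pool, and name no separate cultures behind the 3 libraries, whose spread may therefore be technical. The only comparison, OVER43 against EV, asks which transcripts differ when Cx43 is overexpressed.

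The centrosome holds a pair of centrioles, and the older of them carries distal and subdistal appendages. Subdistal appendages anchor microtubules, and CEP170 is one of their proteins and a marker of the mature centriole. SDCCAG8 is a centrosomal protein needed for primary cilia, mutated in human nephronophthisis and Bardet-Biedl syndrome. ZBTB18 (also called RP58) is a zinc finger repressor of transcription known from brain development, ADSS is the adenylosuccinate synthase of AMP synthesis, DESI2 belongs to a family of deSUMOylating peptidases, and COX20 is an assembly factor of respiratory complex IV. OPN3 is an opsin, and WDR64 encodes a WD repeat protein.

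CEP170 and SDCCAG8 stand head to head, with 759 bases between their annotated starts, and their promoters are shown because both transcripts were low in OVER43. The 250 bases before each start (RefSeq, GRCh38.p14), read 5′ to 3′ on the strand of the gene, lie at chr1:243255282-243255531 on the minus strand for CEP170 and at chr1:243255791-243256040 on the plus strand for SDCCAG8. Capitals mark motif matches.
CEP170: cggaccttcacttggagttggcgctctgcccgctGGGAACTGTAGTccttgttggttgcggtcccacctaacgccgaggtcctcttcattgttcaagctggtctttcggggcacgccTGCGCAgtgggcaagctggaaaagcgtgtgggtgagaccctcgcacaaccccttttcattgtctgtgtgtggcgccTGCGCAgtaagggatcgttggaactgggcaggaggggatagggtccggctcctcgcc
SDCCAG8: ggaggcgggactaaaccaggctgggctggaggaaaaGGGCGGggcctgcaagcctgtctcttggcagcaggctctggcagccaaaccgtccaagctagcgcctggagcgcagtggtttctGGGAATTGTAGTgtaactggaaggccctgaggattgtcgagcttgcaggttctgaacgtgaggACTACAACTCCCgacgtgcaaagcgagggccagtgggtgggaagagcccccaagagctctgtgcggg
Both strands were searched. The motifs were TATAAA for the TATA box and CCAAT for the CCAAT box. GGGCGG stood for the GC box and CTTTGAT for a TCF/LEF element. GTCTAGAC stood for a SMAD element and TGACTCA for an AP-1 element. The element of ZNF143 (Staf), a zinc finger activator of transcription, and the letters TGCGCA were added after the sequences had been read, and no marked match overlaps another. The ZNF143 element occurred 1 time in the CEP170 window and 2 times in the SDCCAG8 window, and 0.795% of the 35116 RefSeq promoter windows of the same length hold it. TGCGCA occurred 2 times in the CEP170 window (6.89% of all windows hold it), and GGGCGG 1 time in the SDCCAG8 window (42.6%). The letters of the TATA box (10.7% of all windows), CCAAT (32%), TCF/LEF (2.26%), SMAD (0.182%) and AP-1 (4.2%) motifs were not in either window. Both windows were GC-rich, at 60.8% for CEP170 and 61.2% for SDCCAG8, beside a median of 58% over all windows. No window of the other members (ADSS is ADSS2 in RefSeq) held the ZNF143 element, and 1 COX20 window held TGCGCA. RefSeq windows were found for 8 of the 9 genes.

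Levels are given in FPKM, fragment counts scaled to transcript length and to the depth of the library, which allows levels of different genes to be compared. Low values stepped by the worth of 1 fragment, and these steps placed the libraries at 46700000 to 49300000 fragments in OVER43 and at 42500000 to 52100000 fragments in EV. GJA1, the introduced gene, read 23.2, 26.0 and 24.9 FPKM in the OVER43 libraries and 0.2999, 0.351 and 0.394 FPKM in the EV libraries, as the labels require. Of the epithelial markers, 4 of 10 passed the filter. KRT18 averaged 148.4 FPKM in OVER43 and 79.4 FPKM in EV, KRT8 24.6 FPKM in OVER43 and 58.7 FPKM in EV. EPCAM averaged 20.5 FPKM in OVER43 and 12.5 FPKM in EV, and CDX2 6.21 FPKM in OVER43 and 7.78 FPKM in EV. KRT20 was listed at 0 in all 6 libraries, and KRT19, CDH1, VIL1, MUC2 and LGR5 stayed below 1 FPKM. None of the 7 leukocyte, fibroblast and endothelial markers reached 1 FPKM in 3 libraries, and PTPRC, CD3E and COL3A1 were listed at 0. In bulk RNA, fewer cells with a transcript and less of it per cell cannot be told apart.

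CEP170 read 0.0954, 0.132 and 0.0418 FPKM in the OVER43 libraries, against 9.89, 8.51 and 9.92 FPKM in the EV libraries. The groups lay far apart, and the OVER43 mean (0.0897 ± 0.0453 FPKM, SD, n = 3) was 105.2-fold lower than the EV mean (9.44 ± 0.806 FPKM, SD, n = 3). On the log2(FPKM + 1) scale, which understates the change of weak genes, the fold change was -3.26 (SE 0.10). The gene (ENSG00000143702) lies on chromosome 1 at 243287730 to 243418650 in the positions of the deposited tables, which are those of hg19. CEP170P1, its pseudogene on chromosome 4, can share its reads and is listed in a row of its own. Every OVER43 library had 0 in that row, and the EV libraries had 0.141, 0.0711 and 0.0642 FPKM, far below CEP170 itself in EV.

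SDCCAG8 read 0.589, 0.831 and 0.149 FPKM in the OVER43 libraries and 8.35, 9.87 and 8.53 FPKM in the EV libraries. Again no library of one group came near the other, with means of 0.523 ± 0.345 FPKM in OVER43 and 8.91 ± 0.828 FPKM in EV (SD, n = 3 each) and a fold change of -2.73 (SE 0.17) on the log2(FPKM + 1) scale. In EV, CEP170 and SDCCAG8 stood at the same level within their spread. The deposited locus of SDCCAG8 (ENSG00000054282, chromosome 1, 243419320 to 244014381) is a bundle, so its bounds are wider than the gene.

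**Figure D1:**
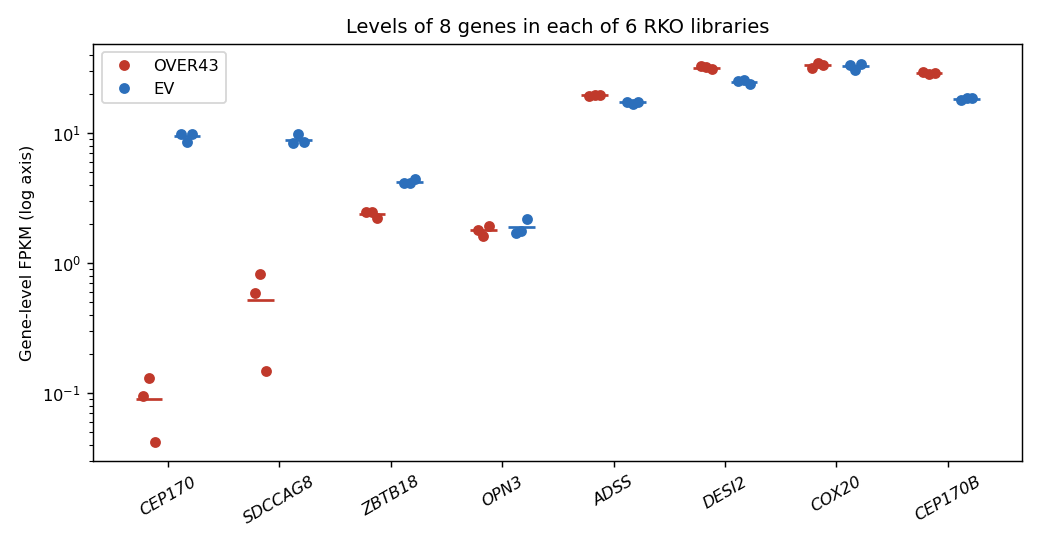
Gene-level FPKM (log axis) of 8 genes in the 3 OVER43 libraries (red, left) and the 3 EV libraries (blue, right), with bars at the group means. CEP170 lies between 0.0418 and 0.132 FPKM in OVER43 and above 8.5 FPKM in EV, SDCCAG8 and ZBTB18 are lower in OVER43, and OPN3 and COX20 overlap between the groups.

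The isoform table splits CEP170 into 25 transcript entries. In OVER43 0 of them averaged over 0.1 FPKM, and in EV 14 did. The largest share in EV belonged to ENST00000366542, a coding transcript of 20 exons (GENCODE 29), which read 0, 0 and 0.00291 FPKM in OVER43 and 1.34, 2.62 and 2.03 FPKM in EV, or 21.2% of the summed EV signal. The other coding transcripts of similar length, ENST00000366544 and ENST00000366543, averaged 0.00668 and 0.00382 FPKM in OVER43 against 1.11 and 0.739 FPKM in EV. Entries that start at the 5′ end of the gene and entries that start deep inside it were both low in OVER43. ENST00000522995, whose annotated start is the gene's own, averaged 0 in OVER43 and 0.682 FPKM in EV. ENST00000476661, which begins 125.9 kb downstream, averaged 0.0168 FPKM in OVER43 and 0.622 FPKM in EV. Only ENST00000439296 and ENST00000518289 averaged higher in OVER43, at 0.0124 and 0.0138 FPKM from OVER43 library 0 alone, against 0 in EV. Short overlapping transcripts share fragments, and the split between them varied widely among EV libraries.

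SDCCAG8 has 14 transcript entries, of which 1 averaged over 0.1 FPKM in OVER43 and 8 in EV. The strongest EV entry was ENST00000482234, which read 0 in each OVER43 library and 3.15, 2.87 and 2.15 FPKM in EV. It was followed by the coding transcript ENST00000476722, at 0, 0.0127 and 0 FPKM in OVER43 and 1.56, 1.79 and 2.26 FPKM in EV. A single entry went the other way: ENST00000497459 read 0.589, 0.818 and 0.128 FPKM in OVER43 and 0 in every EV library, and held 97.8% of the transcript signal of SDCCAG8 in OVER43. This 3-exon transcript starts 231.8 kb into the gene and is 525 bases long (GENCODE 29). Read strand is not given in the sources used here, so fragments of the plus and minus strands at this place cannot be told apart. With that entry left out, the SDCCAG8 transcripts summed to 0.0113 ± 0.0107 FPKM in OVER43 and 8.86 ± 0.828 FPKM in EV (SD, n = 3 each), 0.127% of the EV value. The entry was picked after its values were seen, so the low OVER43 remainder follows from the choice and is only a description.

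**Figure D2:**
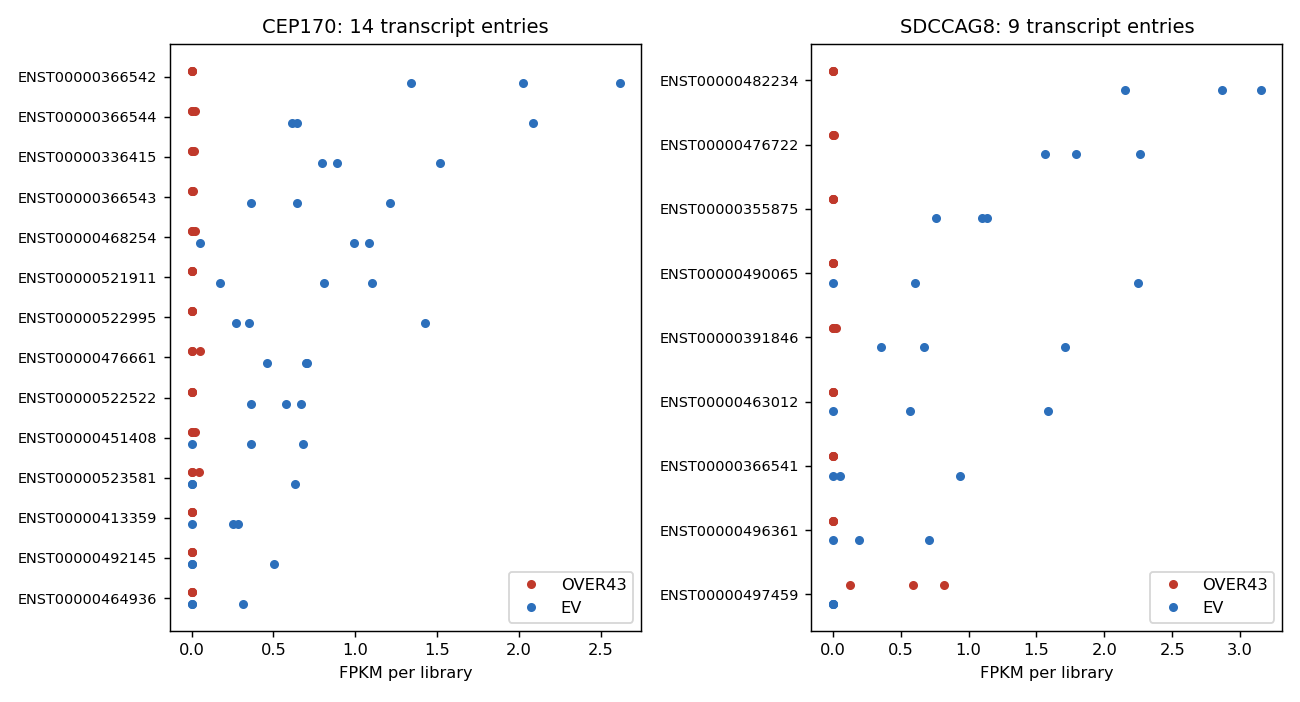
FPKM per library of the transcript entries of CEP170 (left panel) and SDCCAG8 (right panel) that averaged over 0.1 FPKM in either group, with OVER43 libraries in red above EV libraries in blue. OVER43 points sit at or near 0 except at ENST00000497459 of SDCCAG8, which read 0.128 to 0.818 FPKM in OVER43 and 0 in EV.

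Another kind of entry in the isoform table carries a gene ID and spans the whole gene with its introns, so it counts fragments outside the spliced transcripts. For CEP170 it read 0.000319, 0.000502 and 0.000343 FPKM in OVER43 and 0.0419, 0.0459 and 0.0451 FPKM in EV. With the gene's length and the depth of each library, these values come to about 2, 3 and 2 fragments in OVER43 and 285, 255 and 277 fragments in EV. Per unit of depth the OVER43 sum was 0.843% of the EV sum (95% exact Clopper-Pearson interval 0.338% to 1.75%, counting error only). For SDCCAG8 the same entry came to about 1, 0 and 1 fragments in OVER43 and 671, 576 and 652 fragments in EV, or 0.104% of EV (0.0125% to 0.375%). In each OVER43 library and for both genes, the signal outside the spliced transcripts was near 0. The spliced signal was also near 0 for CEP170, and for SDCCAG8 outside ENST00000497459, which held most of its OVER43 signal. Unspliced RNA and genomic DNA cannot be told apart in this entry.

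ZBTB18 (ENSG00000179456, chromosome 1, 244214585 to 244220778) has its locus start 0.927 Mb beyond that of CEP170. Locus starts are lowest coordinates, which for CEP170, on the minus strand, is not the transcription start. ZBTB18 was the 1 other member lower in OVER43 with no overlap between the groups (22.4% of all tested genes were likewise lower without overlap). It read 2.49, 2.4994 and 2.24 FPKM in OVER43 and 4.17, 4.13 and 4.43 FPKM in EV, a fold change of -0.62 (SE 0.087) on the log2(FPKM + 1) scale. Its coding transcript ENST00000358704 averaged 2.19 ± 0.166 FPKM in OVER43 and 3.61 ± 0.177 FPKM in EV (SD, n = 3 each). The entry spanning the whole gene averaged 0.219 ± 0.0546 FPKM in OVER43 and 0.634 ± 0.0131 FPKM in EV, or 34.6% of EV.

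The next genes along the chromosome were not lower. ADSS (ENSG00000035687, 244515937 to 244615436) read 19.4, 19.7 and 19.8 FPKM in OVER43 and 17.5, 16.9 and 17.3 FPKM in EV (log2 fold change 0.18, SE 0.048). DESI2 (ENSG00000121644, 244816237 to 244872335) read 32.7, 32.2 and 31.1 FPKM in OVER43 and 25.1, 25.7 and 24.1 FPKM in EV (0.34, SE 0.047). In both genes the OVER43 libraries lay above the EV libraries, by a small margin in ADSS (33.9% of all tested genes were higher without overlap). The ADSS call was lost with TMM, quantile and equal-sum scaling (log2 fold changes of 0.13, 0.10 and 0.04) and without OVER43 library 1 (0.17) or EV library 1 (0.16). ENST00000366535 held 96.6% of the ADSS transcript signal in OVER43 and 93.5% in EV, and ENST00000302550 held 96.02% and 96.7% of that of DESI2. The whole-gene entry stood at 97.4% of EV in ADSS and at 116.5% of EV in DESI2.

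COX20 (ENSG00000203667, in a bundle at 244998624 to 245027844) read 31.9, 34.7 and 33.6 FPKM in OVER43 and 33.5, 30.9 and 34.3 FPKM in EV, and the groups overlapped (log2 fold change 0.02, SE 0.055). ENST00000366528 was its strongest transcript and held 45.2% of the signal in OVER43 and 40.95% in EV. The next, ENST00000411948 and ENST00000391839, averaged 8.38 and 8.22 FPKM in OVER43 and 8.99 and 8.62 FPKM in EV. For ENST00000411948 the OVER43 libraries (8.10 to 8.52 FPKM) lay below the EV libraries (8.68 to 9.16 FPKM) by a small margin. The COX20 locus is bundled with that of HNRNPU, which can share fragments. OPN3 (ENSG00000054277, in a bundle at 241695434 to 241965435), at -1.592 Mb from the CEP170 locus start, read 1.81, 1.62 and 1.94 FPKM in OVER43 and 1.71, 1.77 and 2.20 FPKM in EV, and also overlapped (-0.05, SE 0.12). Most of it sat on entries annotated as targets of nonsense-mediated decay, ENST00000490673 (75.1% in OVER43, 42.3% in EV) and ENST00000478849 (16.9% and 42.6%), whose libraries overlapped between groups. WDR64 (ENSG00000162843), bundled with OPN3, was near 0 in every library, with at most 0.00621 FPKM in OVER43 and 0.0102 FPKM in EV. It was the 1 member that did not pass the filter of at least 1 FPKM in at least 3 libraries.

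CEP170B (ENSG00000099814, chromosome 14, 105331617 to 105363107), which like CEP170 carries a forkhead-associated domain, was higher in OVER43, at 29.3, 28.7 and 29.1 FPKM, than in EV, at 18.0, 18.6 and 18.8 FPKM (log2 fold change 0.63, SE 0.045). Both of its long coding transcripts moved alike. ENST00000556508 averaged 15.5 ± 0.763 FPKM in OVER43 and 9.70 ± 0.557 FPKM in EV, and ENST00000414716 12.1 ± 0.591 FPKM and 7.57 ± 0.269 FPKM (SD, n = 3 each), so their shares, 55.8% and 43.6% in OVER43, lay beside 55.9% and 43.7% in EV. Its whole-gene entry averaged 1.26 ± 0.00995 FPKM in OVER43 and 1.12 ± 0.0617 FPKM in EV, 113% of EV. The chromosome around it was higher as well: the 54 other tested genes within 5 Mb had a median log2 fold change of 0.59, with 45 called higher and 1 lower, and all 431 tested genes of chromosome 14 a median of 0.43. The part of this shift in the CEP170B value was not tested.

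Ordered by level, the members ran COX20, DESI2, CEP170B, ADSS, ZBTB18, OPN3, SDCCAG8, CEP170 and WDR64 in OVER43, and the libraries of neighbouring genes in this order overlapped only between COX20 and DESI2. In EV the order was COX20, DESI2, CEP170B, ADSS, CEP170, SDCCAG8, ZBTB18, OPN3 and WDR64, and only CEP170 and SDCCAG8 overlapped. CEP170 and SDCCAG8 thus stood below ZBTB18 and OPN3 in OVER43 and above them in EV. In the fit over all 12205 tested genes (limma, Benjamini-Hochberg adjusted p under 0.05), 3 of the 8 tested members were called lower, where 17.5% of all genes were, and 3 higher (CEP170B, DESI2 and ADSS), where 28.4% of all genes were. In either direction 45.9% of all genes were called. Since the members were chosen from this comparison, these counts are given without a reading.

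Of the 201 other genes of the table whose locus starts within 5 Mb of CEP170 on chromosome 1, 20 passed the filter. Of these, 8 were called higher and 4 lower, with a median log2 fold change of 0.09, beside 0.05 over all tested genes. With all libraries brought to equal FPKM sums the split was 4 higher and 5 lower, and the median of all genes -0.08. The nearest tested gene before CEP170 is MAP1LC3C, an autophagy gene of the LC3 family, at -1.129 Mb. It read 3.73, 3.89 and 3.10 FPKM in OVER43 and 143.6, 133.0 and 137.6 FPKM in EV (log2 fold change -4.93, SE 0.073), and is the 1 gene of these 20 called with an absolute log2 fold change of at least 1. Its whole-gene entry stood at 1.46% of EV.

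The next tested gene before that, EXO1, a DNA repair exonuclease, read 21.5, 25.4 and 23.6 FPKM in OVER43 and 27.1, 28.8 and 22.9 FPKM in EV, which overlapped (log2 fold change -0.15, limma adjusted p = 0.21). It was called lower without EV library 2 (-0.24, adjusted p = 0.0424) and with equal FPKM sums (-0.29, adjusted p = 0.0289). The whole-gene entry of EXO1 stood at 71.0% of EV. It read 0.213, 0.168 and 0.156 FPKM in OVER43 and 0.245, 0.262 and 0.250 FPKM in EV, without overlap. The window had 1 gene called lower without OVER43 library 2 or EV library 1, and 5 called higher without OVER43 library 0 or EV library 0. By position, CEP170 and SDCCAG8 lay between MAP1LC3C (38.6-fold lower in OVER43) and ZBTB18, both lower in OVER43, with EXO1 beyond them on one side and ADSS on the other. CHML of the OPN3 bundle (9.31 ± 0.431 FPKM in OVER43, 9.49 ± 0.177 FPKM in EV) and ENSG00000188206 of the COX20 bundle (3.68 ± 0.411 and 3.49 ± 0.297 FPKM, SD, n = 3 each) were not called. They adjoin OPN3 and COX20 when genes of a bundle, which share a locus, are ordered by name. HNRNPU, also of the COX20 bundle, was called higher (log2 fold change 0.37). So was FH, the tested gene before the OPN3 bundle (0.24).

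**Figure D3:**
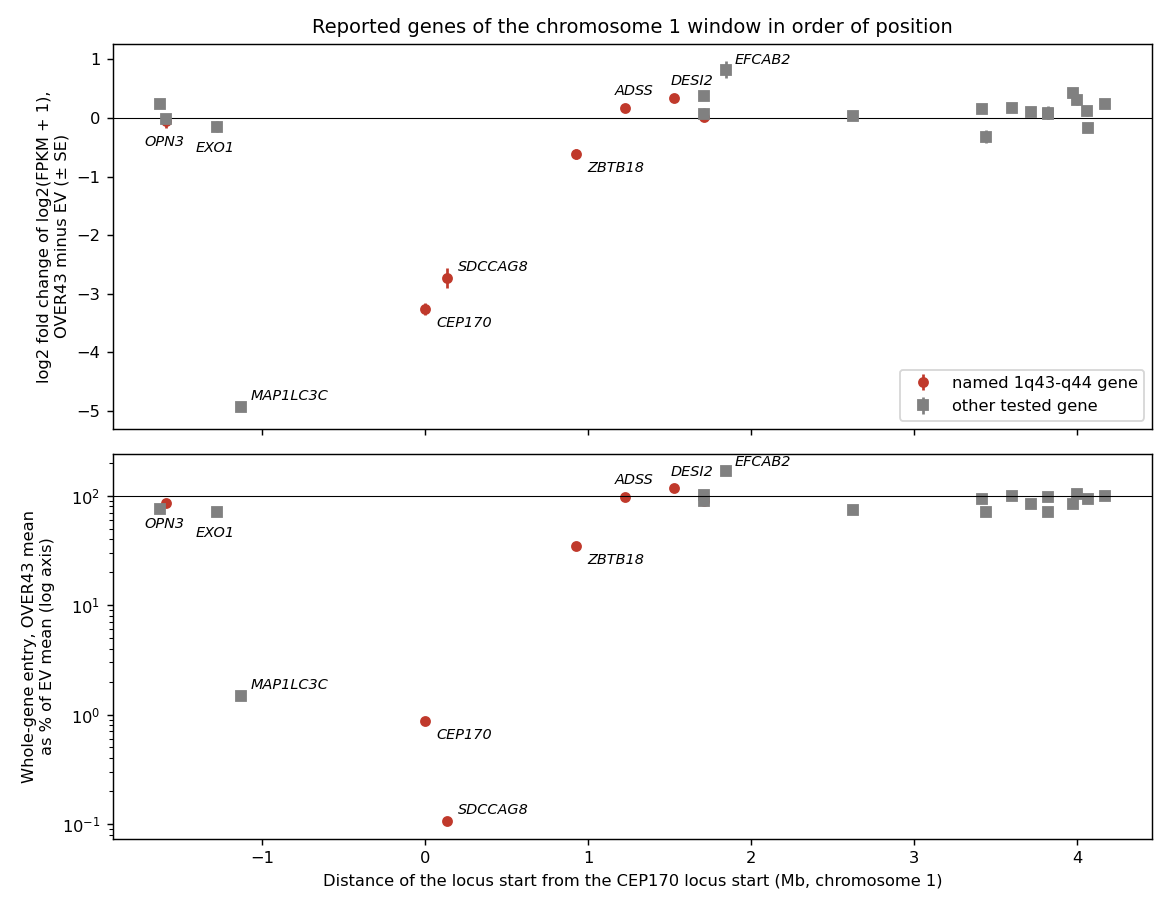
Tested genes reported here within 5 Mb of CEP170 by distance of their locus start from that of CEP170 (Mb), with the log2 fold change and its SE above and the whole-gene entry in OVER43 as a percentage of EV (log axis) below. MAP1LC3C, CEP170 and SDCCAG8 stand apart in both panels, with whole-gene entries at 1.46%, 0.877% and 0.106% of EV, ZBTB18 lies at 34.6%, and ADSS lies at 97.4%.

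Pearson correlation of log2(FPKM + 1) over the 6 libraries served as the measure of likeness, and with 2 groups of libraries it mostly reflects the difference between them. The pattern most like that of CEP170 was that of MAP1LC3C, followed by BCL10, FIBCD1, SH3RF3 and EFNB2 (each r above 0.99, as for 235 tested genes). BCL10, for one, averaged 24.1 ± 0.211 FPKM in OVER43 and 61.5 ± 0.816 FPKM in EV (SD, n = 3 each). For SDCCAG8 they were CBX6, ZFP37, ATP8B2, RAB11FIP1 and TMOD1. CEP170 and SDCCAG8 correlated with r = 0.988.

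Partners of CEP170 at the subdistal appendage were called in both directions, as were the tested genes as a whole. Of 17 tested genes of this list (20 found), 6 were called higher and 2 lower (median log2 fold change 0.14), beside 28.4% and 17.5% of all tested genes and their median of 0.05. ODF2, the scaffold on which the appendages are built, fell to 26.4 ± 0.952 FPKM in OVER43, against 41.15 ± 1.33 FPKM in EV (-0.62 on the log2 scale, limma adjusted p = 3.89e-05). CNTRL, encoding centriolin, fell to 7.21 ± 0.764 FPKM in OVER43, against 10.3 ± 0.526 FPKM in EV (-0.46, adjusted p = 0.00275). NIN, encoding the microtubule anchor ninein, rose to 24.8 ± 1.24 FPKM in OVER43, against 17.5 ± 0.978 FPKM in EV, and CEP350 to 14.1 ± 1.53 FPKM, against 8.76 ± 0.622 FPKM (limma adjusted p = 0.000453 and 0.000812, n = 3 each). ODF2 and CNTRL lie on chromosome 9, whose tested genes had a median of -0.20, and NIN on chromosome 14 with its median of 0.43. The part of these shifts was not tested.

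Of 33 tested genes of the distal appendages and the centriole core, 6 were called higher (3 without OVER43 library 0) and 5 lower (median -0.07), where 28.4% of all tested genes were called higher and 17.5% lower. CEP44 fell to 3.98 ± 0.596 FPKM in OVER43, against 9.20 ± 0.939 FPKM in EV (-1.04, limma adjusted p = 0.000192), and CEP70 to 3.81 ± 0.836 FPKM, against 6.63 ± 0.136 FPKM. LRRC45, a linker of centrioles, rose to 14.7 ± 0.945 FPKM, against 9.27 ± 1.10 FPKM, and CEP135 to 9.36 ± 0.426 FPKM, against 6.59 ± 0.351 FPKM (SD, n = 3 each). Of 24 tested genes of centriolar satellites, the granules around the centrosome, 5 were called higher (3 without OVER43 library 1) and 3 lower, with a median of 0.01, beside the same 28.4% and 17.5% of all tested genes. MPHOSPH9 rose to 17.2 ± 0.869 FPKM in OVER43, against 12.9 ± 0.553 FPKM in EV, and SPAG5, a spindle protein, to 35.8 ± 1.83 FPKM, against 27.1 ± 1.14 FPKM. TEX9 fell to 2.47 ± 0.559 FPKM in OVER43, against 4.24 ± 0.512 FPKM in EV (log2 fold change -0.60), a call that was lost with no filter on low values (limma adjusted p = 0.0672). LRRC49 averaged 3.51 ± 0.489 FPKM in OVER43 and 5.69 ± 1.27 FPKM in EV (-0.56). Its call was lost with no filter (limma adjusted p = 0.112) and without OVER43 library 0 (-0.50, adjusted p = 0.0504).

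Of 34 tested genes of nephronophthisis and Bardet-Biedl syndrome, the disorders of SDCCAG8, 4 were called higher and 9 lower (median -0.09). Among all tested genes 28.4% were called higher and 17.5% lower, and the median was 0.05. ANKS6 fell to 19.7 ± 0.334 FPKM in OVER43, against 30.03 ± 0.873 FPKM in EV, and INVS, encoding inversin, to 9.48 ± 1.14 FPKM, against 14.4 ± 0.649 FPKM. Both lie on chromosome 9. TTC8, a subunit of the BBSome, rose to 20.2 ± 0.327 FPKM, against 12.3 ± 0.708 FPKM, on chromosome 14, and MKKS, a chaperonin-like protein, to 38.3 ± 3.14 FPKM, against 30.15 ± 1.27 FPKM (SD, n = 3 each). Across ANKS6, INVS, TTC8 and MKKS, limma gave adjusted p-values from 5.03e-05 to 0.00416. The MKKS call was lost with no filter (adjusted p = 0.0503).

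Beside COX20, 24 genes of complex IV assembly were tested, of which 11 were called higher and 1 lower (median 0.19), against 28.4% higher and 17.5% lower over all tested genes (median 0.05). OXA1L, the insertase of the mitochondrial inner membrane, rose to 165.8 ± 3.55 FPKM in OVER43, against 89.2 ± 2.18 FPKM in EV, on chromosome 14, and SCO2, a copper chaperone, to 35.3 ± 2.77 FPKM, against 21.99 ± 1.86 FPKM. CMC2 fell to 47.1 ± 2.16 FPKM, against 58.9 ± 1.37 FPKM (SD, n = 3 each). With equal FPKM sums the split of this list was 7 higher and 3 lower. Of 18 tested genes of purine nucleotide synthesis, the pathway of ADSS, 7 were called higher and 4 lower (median 0.03), set against those same shares of 28.4% and 17.5%. ATIC and ADK rose, to 99.6 ± 3.12 and 49.2 ± 1.90 FPKM, against 74.6 ± 4.54 and 38.02 ± 1.65 FPKM in EV. GMPS, which makes GMP, fell to 44.1 ± 5.02 FPKM, against 71.6 ± 3.46 FPKM, and PRPS2 to 36.2 ± 0.580 FPKM, against 45.1 ± 0.916 FPKM. Across these 7 complex IV and purine genes, limma gave adjusted p-values from 1.2e-06 to 0.000781. With equal sums the splits were 2 higher and 3 lower for the subdistal appendage, 2 and 12 for the distal appendage and centriole core, 2 and 8 for satellites, 2 and 15 for nephronophthisis and Bardet-Biedl genes, and 4 and 7 for purine synthesis.

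**Figure D4:**
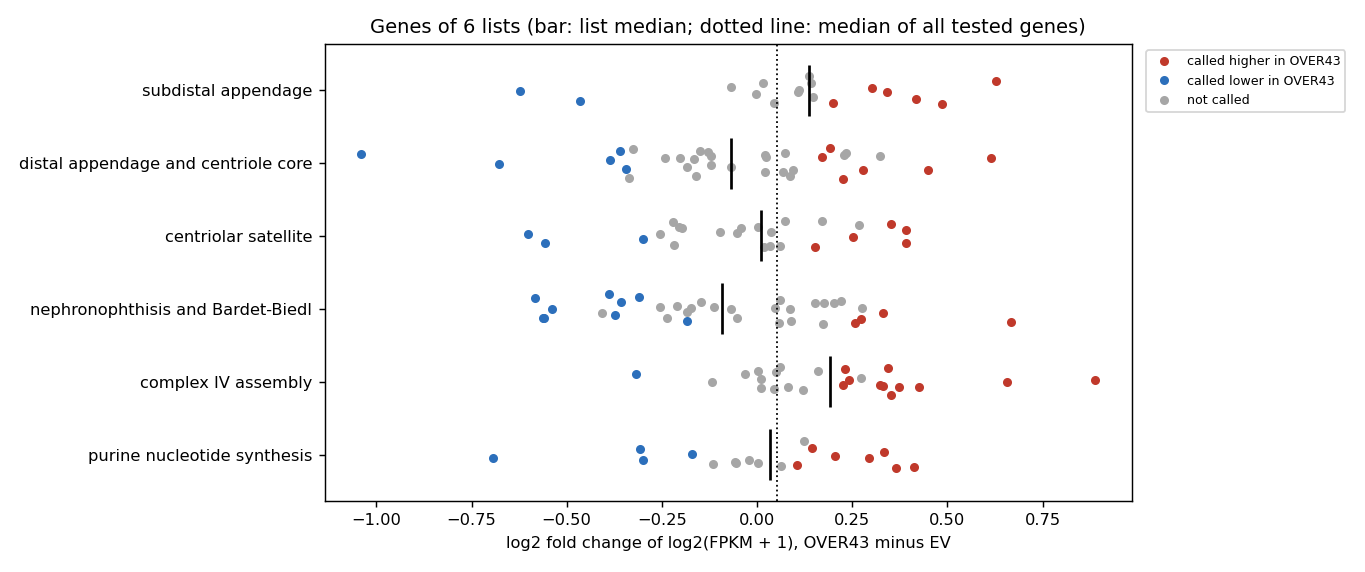
Log2 fold change (OVER43 minus EV, log2(FPKM + 1) scale) of the tested genes of 6 lists, red where called higher and blue where called lower in OVER43, with the list median as a bar and the median of all genes (0.05) dotted. List medians lie between -0.09 and 0.19.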

How the data were processed

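Poly(A) RNA of 6 RKO libraries was made with a TruSeq kit, per the labels' protocols. The authors deposited FPKM values per library for 63563 genes and 251748 isoform entries, made with Cuffdiff, per the submitters' processing notes. The deposited log2 fold changes, test statistic (a score) and p-values of the authors were not used. Neither aligner nor strand is given in the sources used here. The notes name hg38, but of 52523 loci whose gene ID is in GENCODE 29 (GRCh38), only 271 begin or stop at its coordinates, and the positions are those of hg19. GENCODE 29 served for transcript structure and length, and RefSeq (GRCh38.p14) for promoters.

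Columns were matched to groups by name. Their numbers run 0 to 2 and the labels' replicates 1 to 3, so a column is a library of its group and not a given sample. Left out were 19 genes with no estimate. Counts had been allowed for in the plan, but the tables hold FPKM. The filter kept genes of 1 FPKM or more in 3 or more libraries (2 where a library was left out). The test was limma 3.58.1 in R 4.3.3, with trend and robust fits, on log2(FPKM + 1), group as the only term, two-sided, adjusted by Benjamini-Hochberg at 0.05. Depth and a length offset (223 to 226.9 bases) were fitted to values of 1 fragment in genes with 1 entry. Of the values under 10 fragments in such genes, 100% were then within 0.1 of a whole number. Fragments of whole-gene entries are FPKM times depth times the length (GENCODE 29) less this offset. Named genes are the members, GJA1, CEP170P1, the tested neighbours of members and the window genes called with an absolute log2 fold change of at least 1, up to 2 highest and 2 lowest called genes per list, and the 5 genes most correlated with CEP170 and with SDCCAG8. The result of 1 gene that this rule names is not reported here. The members and lists were chosen with earlier results of these data known. Alternatives were a block by column number, a pseudocount of 0.1, a filter at 5 FPKM or none, scaling by TMM (own code), quantiles or equal sums, and the omission of each library in turn.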

Additional observations from a re-analysis of the deposited data

How the results depend on the processing

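CEP170, SDCCAG8, CEP170B and DESI2 were called in the same direction in all 14 settings, and ZBTB18 in the 13 that kept it. The members were chosen from this comparison, so these calls only describe the effect of the settings and lend no support. CEP170 and SDCCAG8 passed the filter only through the EV libraries, since every OVER43 library lay below 1 FPKM. Log2 fold changes ran from -5.68 to -3.20 for CEP170 and from -4.05 to -2.54 for SDCCAG8. ADSS was called in 9 of 14, so 2 to 3 members were called higher without 1 library. COX20, never called, turned negative with TMM (-0.0279), quantile (-0.0738) and equal-sum scaling (-0.116) and ran from -0.0204 to 0.0546 without 1 library (negative without OVER43 library 1 or EV library 1). OPN3, never called, turned positive with quantile scaling (0.0441) and ran from -0.0961 to 0.0257 without 1 library (positive without EV library 2). ENSG00000188206 turned negative with equal sums (-0.0542) and ran from -0.0081 to 0.1170 without 1 library, and CHML from -0.0506 to 0.0080, both changing sign without OVER43 library 2.

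As deposited, 3462 genes were called higher and 2138 lower (61.8% higher). The split was 2832 and 2560 with TMM, 2557 and 2434 with quantile scaling and 1870 and 3567 with equal sums, since scaling moves the median of all genes from 0.053 to -0.076 (equal sums). Window calls (8 higher, 4 lower) went to 5 higher with quantile scaling, 4 higher with equal sums, and 5 higher and 2 lower with no filter, and to 5 to 7 higher and 1 to 5 lower without 1 library. For the subdistal list equal sums gave 2 higher. Distal appendage and core calls (6 higher, 5 lower) were 3 and 9 with TMM, 2 and 12 with equal sums, 2 lower with no filter, 3 lower at 5 FPKM, and 3 to 5 higher without 1 library. Satellite calls (5 and 3) were 5 lower with TMM, 3 higher with quantile scaling, 2 and 8 with equal sums, 3 and 1 with no filter, and 3 to 6 higher without 1 library. Nephronophthisis and Bardet-Biedl calls (4 and 9) were 2 and 15 with equal sums and 1 and 4 with no filter. Complex IV assembly calls (11 and 1) were 2 lower with quantile scaling and 7 and 3 with equal sums. Purine synthesis calls (7 and 4) were 4 higher with quantile scaling, 4 and 7 with equal sums and 2 lower with no filter. The causes were not tested.

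Same-numbered columns did not deviate together (r = 0.0166, -0.0909 and 0.0285). These values show no shared deviation by number, but cannot exclude that same-numbered libraries were prepared together. A replicate block by number gave 3306 higher and 2010 lower and left 3 members higher and 3 lower. Whole-gene entries of CEP170 and SDCCAG8 rest on 7 and 2 fragments in OVER43, which limits the precision of their ratios.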

Other observations

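Beyond ZBTB18 and ADSS, in the same window, genes went both ways. HNRNPU, EFCAB2 and ZNF669 were among those higher in OVER43, and CNST and ZNF731P were called lower (log2 fold changes of -0.32 and -0.17). All of these were picked after their values were seen. EFCAB2, a gene with calcium-binding EF-hand motifs, averaged 12.2 ± 1.55 FPKM in OVER43 and 6.53 ± 1.32 FPKM in EV (SD, n = 3 each, log2 fold change 0.82, limma adjusted p = 0.00189). Its whole-gene entry stood at 166.1% of EV. HNRNPU, encoding a nuclear RNA-binding protein and bundled with COX20, averaged 275.7 ± 8.79 FPKM in OVER43 and 213.4 ± 6.99 FPKM in EV (SD, n = 3 each, log2 fold change 0.37, limma adjusted p = 0.000126), with a whole-gene entry at 101.1% of EV. ZNF669 averaged 9.04 ± 0.431 FPKM in OVER43 and 6.48 ± 0.629 FPKM in EV (SD, n = 3 each, log2 fold change 0.43, limma adjusted p = 0.00395), with a whole-gene entry at 83.3% of EV.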
